A study of Mus musculus with 12 samples.

Results

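Fibroblast growth factor (FGF) receptors and ligands were followed across 4 ages of mouse muscle stem cells. The group holds 8 genes of the 19938 measured: the receptors Fgfr1, Fgfr2, Fgfr3 and Fgfr4, the receptor-like gene Fgfrl1, and the ligands Fgf1, Fgf2 and Fgf7. They were listed by name and not by a measured value, though earlier results of these data were known when the list was made. Each was read by 1 probe set that carries a single gene symbol.

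Satellite cells are the stem cells of skeletal muscle and are marked by expression of Pax7, a transcription factor. Green fluorescent cells were sorted from C57BL/6 mice heterozygous for the reporter Pax7-ZsGreen, which all groups carry. Fetal cells came from the fore- and hindlimbs of 4 mice at E17.5. Hindlimb muscle gave the other groups: adolescent cells from 6 mice at postnatal day 21, adult cells from 8 mice of 2 to 3 months, and aged cells from 8 mice older than 1 year. Mice of a stage were pooled, and each stage was read on 3 microarrays. The labels do not say whether the 3 replicates are separate pools, so p-values measure the spread between these arrays, which may be technical. Sorting gates were set for each age, and stage, age and the fetal addition of forelimb cannot be told apart.

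FGFs are secreted proteins that bind receptor tyrosine kinases at the cell surface together with heparan sulphate chains. The bound receptors pair, phosphorylate each other and recruit adaptor proteins that start the Ras and ERK cascade. In muscle, FGF2 is a classical mitogen of satellite cells, FGFR1 and FGFR4 are the receptors best known there, and Sprouty proteins restrain the pathway.

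All values are deposited log2 signals, on which a difference of 1 is a 2-fold change. They allow comparison of a gene between arrays, not of different genes with each other. A gene passed where limma's p, adjusted by Benjamini-Hochberg over all 19938 genes, was under 0.05, and rose or fell is written only of genes that passed. A difference is given with its standard error (SE) pooled over the 4 stages, with n = 3 arrays a stage. An array's background was read from 1210 probe sets of odorant and vomeronasal receptors, genes of smell, and a member was counted as above background where it exceeded their 95th percentile on that array. RNA was bulk, so fewer cells of a type and less RNA per cell cannot be told apart.

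Several arrays stood apart. The mean odorant receptor signal was raised on adult replicates 2 and 3 and on aged replicate 1 (4.31 to 4.50). On 9 arrays it was 3.79 to 3.91. Adult replicate 1 carried more cycling cell signal (mean of 9 genes 8.06) than adult replicates 2 and 3 (6.02 and 6.00). Replicates 2 and 3 of a stage were closest to each other (r = 0.996 to 0.999 across genes, against 0.972 to 0.993 for replicate 1 with either), and with that pair averaged into 1 sample Fgfr1 and Fgfrl1 were the only members to pass. The satellite cell list (10 genes, Pax7 among them) lay between 9.11 and 9.18 in fetal cells, 10.35 and 10.44 in adolescent cells, 10.66 and 10.69 in adult cells and 10.60 and 10.69 in aged cells, with all 10 genes above background on all arrays. Endothelial and pericyte genes, marking vessel cells, were above background on all arrays as well (10 of 10 in both lists).

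**Figure D1:**
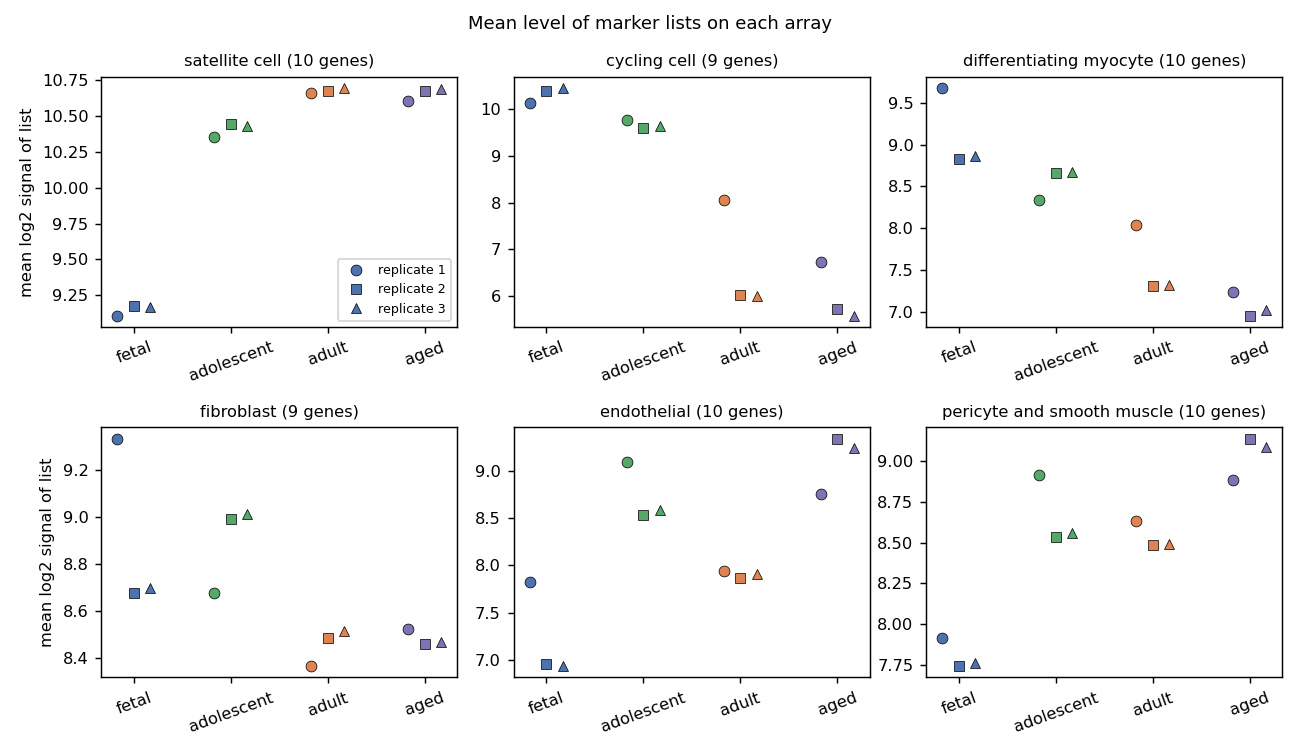
Mean log2 signal of 6 marker lists on each of the 12 arrays, by stage, with 1 symbol per replicate number and a separate vertical scale in each panel. Endothelial genes were lowest in fetal cells (6.94 to 7.83), and cycling cell genes on adult replicate 1 (8.06) lay between the adolescent arrays (9.61 to 9.77) and the other adult arrays (6.02 and 6.00).

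Fgfr1 was about doubled after birth and Fgfrl1 fell, Fgfr4 was higher in adult and aged cells than in fetal cells, and Fgf2 was highest in aged cells. By limma's F-test over the stages, 6 of the 8 members differed, against 41.6% of all genes. They were Fgfr1 (adjusted p = 1.37e-06), Fgf2 (2.28e-04), Fgfrl1 (4.14e-04), Fgfr4 (0.00557), Fgf1 (0.0198) and Fgf7 (0.0247). Fgfr3 (0.0844) and Fgfr2 (0.188) did not pass.

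From fetal to adolescent cells, 3 members rose and 2 fell, where 10.1% of all genes rose and 8.68% fell (18.8% in either direction). The risers were Fgfr1, Fgfr3 and Fgf1 and the fallers Fgfrl1 and Fgf2. The arrays of these stages did not overlap for 6 of 8 members, against 41.6% of all genes. From adolescent to adult cells only Fgf7 passed, as a fall. With the replicate number as a block across all stages, Fgf7 did not pass (adjusted p = 0.0561) and Fgfr4 passed as a rise (0.0334). The labels state no such pairing, and the arrays did not tell replicate numbers 2 and 3 apart. Of all genes 15.2% fell and 4.56% rose in that step (19.8% together), and arrays did not overlap for 2 members, against 36.0% of genes. From adult to aged cells only Fgf2 passed, as a rise. Of all genes 3.28% rose and 0.216% fell (3.50% together), and 1 member did not overlap, against 16.0% of genes. At an unadjusted p under 0.05, the same limma fit added Fgfr4 as higher in adult than adolescent cells and no other member in either step.

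**Figure D2:**
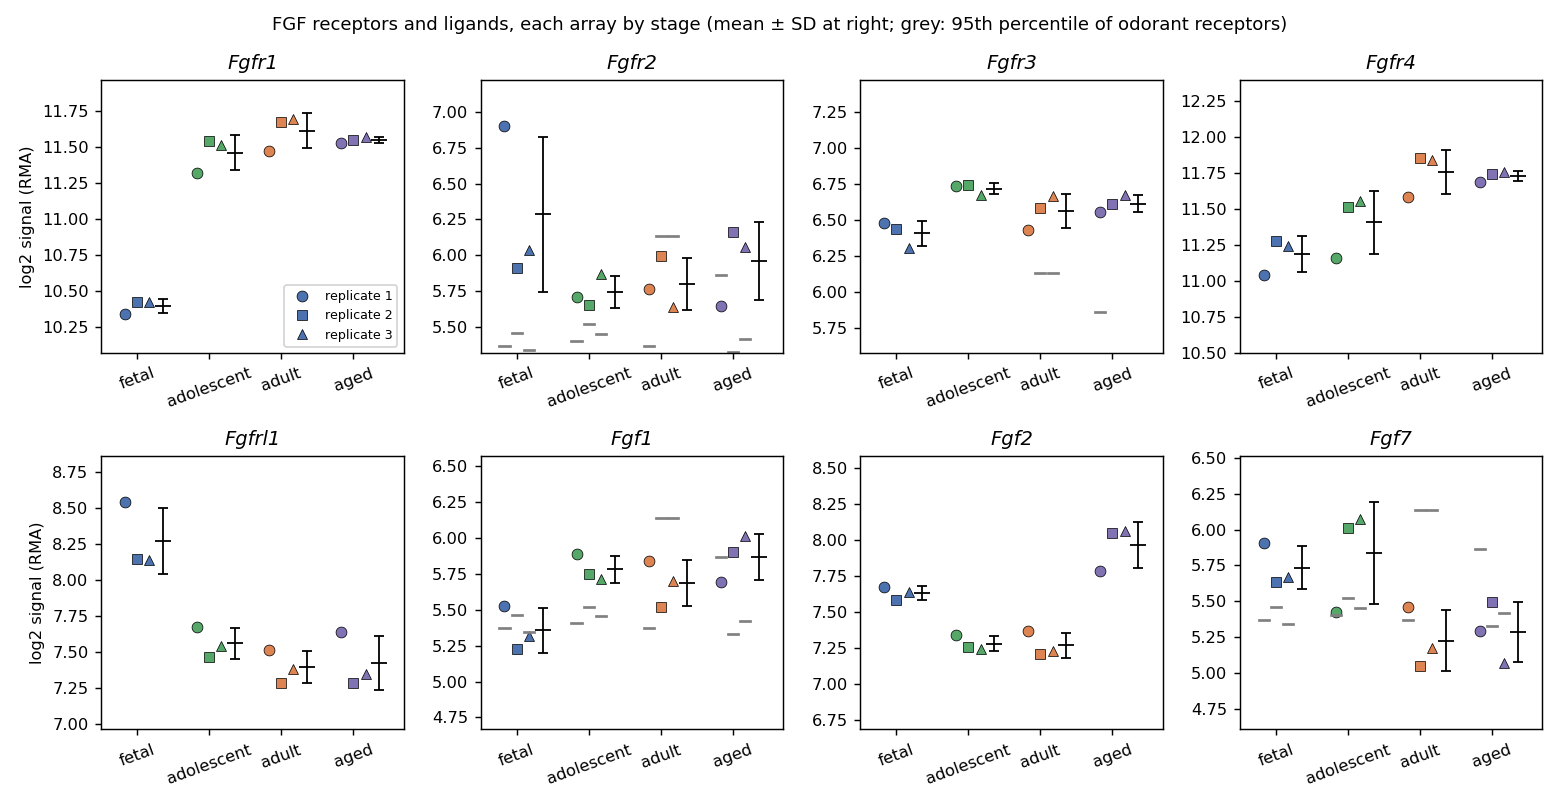
Log2 signal of the 8 members on each array, by stage, with the mean ± SD (n = 3) to the right of each group, and grey bars at the 95th percentile of the odorant receptor probe sets of the same array. All panels span the same number of log2 units. Fetal Fgfr1 (10.34 to 10.42) lay below all later arrays (11.32 to 11.70), and the aged arrays carried the highest Fgf2 values (7.78 to 8.06).

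The signalling receptors come first. Fgfr1, a kinase receptor with broad affinity for FGFs including FGF2, read 10.34, 10.42 and 10.42 on fetal replicates 1 to 3. It read 11.32, 11.54 and 11.52 on the adolescent arrays. The adult arrays gave 11.47, 11.67 and 11.70 and the aged arrays 11.53, 11.55 and 11.57. Every later array lay above every fetal array, and the 3 later stages overlapped. Fgfr1 was 2.09-fold higher in adolescent than fetal cells (log2 difference 1.06 ± 0.097, adjusted p = 5.46e-06). The difference from fetal cells was 1.22 ± 0.097 in adult cells (adjusted p = 8.54e-07) and 1.16 ± 0.097 in aged cells (1.01e-06); these comparisons share the fetal arrays. Between later stages it did not pass, with 0.15 (95% interval -0.057 to 0.37) from adolescent to adult and -0.062 (-0.27 to 0.15) from adult to aged cells. From low to high, the order was fetal, adolescent, aged and adult, and only the lowest step exceeded the spread. In all 20 alternative settings its 3 differences from fetal cells passed. Satellite cell genes (10 of 10), endothelial genes (9 of 10) and pericyte genes (7 of 10, with 1 that fell) rose in the step from fetal to adolescent cells as well, and 6 of 10 endothelial genes then fell from adolescent to adult cells, where Fgfr1 did not pass. Their part in the fetal difference was not tested.

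Fgfr4, a kinase receptor characteristic of myogenic cells, was highest in adult and aged cells. It read 11.04, 11.27 and 11.25 on the fetal arrays and 11.16, 11.51 and 11.55 on the adolescent arrays. Adult arrays gave 11.58, 11.86 and 11.84 and aged arrays 11.69, 11.74 and 11.76. Fetal and adolescent arrays overlapped, while all adult and aged arrays lay above both. Replicate 1 was the lowest array of each stage. Against fetal cells Fgfr4 was 1.49-fold higher in adult cells (0.57 ± 0.12, adjusted p = 0.00279) and 1.46-fold higher in aged cells (0.54 ± 0.12, adjusted p = 0.00381). Other lists moved between fetal and adult cells as well. Of 10 satellite cell genes 9 rose, 8 of 10 differentiating myocyte genes fell, and all 9 cycling cell genes fell (median -3.51). The 9 cycling genes also fell from adolescent to adult cells (median -3.11). Adult replicate 1, the lowest adult array for Fgfr4, was the adult array with the highest cycling signal. Adolescent and aged replicate 1 also had the highest cycling signal of their stage (9.77 and 6.74). Fetal replicate 1 went the other way, with the lowest (10.13, against 10.39 and 10.44). The part of these lists in the Fgfr4 differences was not tested. The 2 steps that make up the adult rise did not pass on their own, with 0.22 ± 0.12 from fetal to adolescent (adjusted p = 0.308) and 0.35 ± 0.12 from adolescent to adult cells (0.0634). The adult step passed with the replicate number as a block (0.35 ± 0.098, adjusted p = 0.0334) and without adult replicate 1 (0.44, adjusted p = 0.0104). It also passed with arrays centred on their medians, and with genes whose highest stage mean was under 6 left out (adjusted p at most 0.0439). In 16 of 20 settings it did not pass. Aged and adolescent cells differed by 0.32 ± 0.12 (adjusted p = 0.0950), which passed without adult replicate 1 (0.0451). Without the 3 arrays of high odorant receptor signal the adult cells are replicate 1 alone, and the adult difference from fetal cells was 0.40 (adjusted p = 0.0911).

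In adult and aged cells Fgfr4 was higher and Fgfrl1 lower than in fetal cells. The bases before their transcription starts are shown for that reason, as given by RefSeq on GRCm38.p6. Fgfr1, which also rose where Fgfrl1 fell, had no window in the source used. E-boxes, the CANNTG sites that bind basic helix-loop-helix factors, are in capitals, whichever member of that family prefers their middle letters. Each line holds 250 bases that end at the base before the start, on the plus strand, from chr13:55152568-55152817 for Fgfr4 and chr5:108693979-108694228 for Fgfrl1.
Fgfr4: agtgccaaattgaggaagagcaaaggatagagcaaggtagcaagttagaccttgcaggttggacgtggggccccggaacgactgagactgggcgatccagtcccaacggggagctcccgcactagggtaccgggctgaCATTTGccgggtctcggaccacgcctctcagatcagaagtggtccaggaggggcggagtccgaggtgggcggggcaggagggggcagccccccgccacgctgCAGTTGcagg
Fgfrl1: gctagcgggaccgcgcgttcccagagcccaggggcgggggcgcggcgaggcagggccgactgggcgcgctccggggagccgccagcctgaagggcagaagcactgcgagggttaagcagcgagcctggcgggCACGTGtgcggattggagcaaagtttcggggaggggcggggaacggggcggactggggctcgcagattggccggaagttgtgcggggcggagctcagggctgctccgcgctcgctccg
The Fgfr4 window holds 2 E-boxes, CATTTG beginning 112 bases and CAGTTG beginning 10 bases before the start. The Fgfrl1 window holds 1, CACGTG, beginning 118 bases before it. The pattern CANNTG is its own reverse complement, so 1 search covers both strands, and 66.2% of 32851 RefSeq windows of this length hold at least 1. GC boxes (GGGCGG on either strand) numbered 2 for Fgfr4 and 4 for Fgfrl1, and 32.7% of windows hold at least 1. Windows were matched for 6 members, Fgfr3 having 2 and Fgfr1 and Fgf1 none. Of the 7 windows 5 held an E-box, the exceptions being Fgf2 and the downstream Fgfr3 window. These matches describe letters and are not sites shown to be bound.

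Fgfrl1 encodes an FGF-binding receptor that lacks the tyrosine kinase domain of the other receptors. Its fetal arrays read 8.54, 8.15 and 8.14. Adolescent arrays read 7.68, 7.46 and 7.54, adult arrays 7.51, 7.29 and 7.39, and aged arrays 7.64, 7.29 and 7.35. All fetal arrays lay above all later arrays, and the later stages overlapped. Fgfrl1 fell 1.64-fold from fetal to adolescent cells (-0.71 ± 0.13, adjusted p = 0.00199). It was lower than fetal by 0.88 ± 0.13 in adult cells (log2 difference -0.88, adjusted p = 2.02e-04) and by 0.85 ± 0.13 in aged cells (-0.85, adjusted p = 2.31e-04). Later steps did not pass (-0.17 with a 95% interval of -0.46 to 0.13, then 0.029 with -0.26 to 0.32). The order from low to high was adult, aged, adolescent and fetal, and only the uppermost step exceeded the spread. The highest array, fetal replicate 1, also carried more differentiating myocyte signal (mean of 10 genes 9.67, against 8.83 and 8.86 on fetal replicates 2 and 3) and more fibroblast signal (9.33 against 8.68 and 8.70). The endothelial list was raised on fetal replicate 1 too (7.83 against 6.95 and 6.94), and the mast cell list was lowest there (5.93 against 6.29 and 6.25). Without that array the fetal to adolescent difference of Fgfrl1 still passed. From fetal to adolescent cells 4 of 10 myocyte genes fell and 1 rose, and 6 of 8 mast cell genes fell (list mean 5.93 to 6.29 on fetal and 4.87 to 4.90 on adolescent arrays). Their part in the Fgfrl1 fall was not tested.

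Fgfr3, a kinase receptor better known from cartilage, moved over a narrow range. Fetal arrays read 6.48, 6.44 and 6.31, adolescent arrays 6.74, 6.75 and 6.67, adult arrays 6.43, 6.58 and 6.67, and aged arrays 6.56, 6.62 and 6.68. It was above background on all 12 arrays. Adolescent cells were 1.24-fold higher than fetal cells (0.31 ± 0.095, adjusted p = 0.0369), with no overlap. That call ended when any of 8 arrays was left out (fetal 2 or 3, any adolescent array, adult 2, aged 2 or 3; adjusted p 0.0502 to 0.161). It also ended with quantile normalization and with arrays centred on their medians. The order was fetal, adult, aged and adolescent, and no neighbouring pair in it differed beyond the spread.

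Fgfr2, a kinase receptor whose epithelial form is the receptor of FGF7, passed no test. Its fetal arrays read 6.90, 5.91 and 6.04, and the other 9 arrays lay between 5.64 and 6.16. Fetal replicate 1 stood apart from all others, and the gene was above background on 9 of 12 arrays. The fetal to adolescent difference was -0.54 ± 0.22 (95% interval -1.02 to -0.056, adjusted p = 0.129), with no overlap. Without fetal replicate 1 it was -0.23 (adjusted p = 0.470), and the adult difference from fetal cells went from -0.48 (0.0939) to -0.17 (0.393). Without fetal replicate 2 the adult difference was -0.67 (0.0425). Fetal replicate 1 is the array with the raised myocyte, fibroblast and endothelial signal given above, and their part was not tested. From adolescent to adult and from adult to aged cells the differences were 0.055 (-0.43 to 0.54) and 0.16 (-0.33 to 0.64).

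Among the ligands, Fgf2, the mitogen of satellite cells, was highest in aged cells. Fetal arrays read 7.67, 7.58 and 7.64, adolescent arrays 7.34, 7.25 and 7.24, adult arrays 7.37, 7.20 and 7.23, and aged arrays 7.78, 8.05 and 8.06. The aged arrays were the highest, the fetal arrays came next, and adolescent and adult arrays overlapped below them. Fgf2 was 1.62-fold higher in aged than adult cells (0.70 ± 0.10, adjusted p = 0.00267) and 1.61-fold higher than in adolescent cells (0.69 ± 0.10, adjusted p = 3.99e-04). The rise from adult cells passed without any single array, with aged replicate 1 the lowest of its group. It did not pass in a fit of the adult and aged arrays alone (adjusted p = 0.0648 at the same difference) or with replicates 2 and 3 averaged (0.63, adjusted p = 0.358).

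Among the younger stages, Fgf2 fell from fetal to adolescent cells by 0.35 (-0.35 ± 0.10, adjusted p = 0.0268), a call that ended without any fetal array or without adolescent replicate 2 or 3 (0.0572 to 0.103). Adolescent and adult cells differed by -0.013 ± 0.10, but with quantile normalization adult cells were higher by 0.24 (adjusted p = 0.0466). Adult cells were lower than fetal cells (-0.36 ± 0.10, adjusted p = 0.0119). That call ended without adult replicate 2 (0.0502), without the 3 arrays of high odorant receptor signal, and with quantile normalization (-0.12, adjusted p = 0.241). Aged cells were above fetal cells by 0.33 ± 0.10 (adjusted p = 0.0193), a call lost without fetal 2 or 3 or aged 2 or 3 (0.0524 to 0.0867). The order was adult, adolescent, fetal and aged; its lowest pair did not differ, and both upper steps passed in the fit of all arrays.

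Vessel genes moved with Fgf2 between adult and aged cells. Of 10 endothelial genes 8 rose, and the mean of the list was 7.87 to 7.94 on adult and 8.75 to 9.34 on aged arrays. Of 10 pericyte and smooth muscle genes 3 rose (8.48 to 8.63 on adult and 8.89 to 9.14 on aged arrays). Their part in the Fgf2 rise was not tested. On the adolescent arrays the endothelial list was also high (8.54 to 9.10) while Fgf2 stood at 7.24 to 7.34, and on the fetal arrays it was low (6.94 to 7.83) while Fgf2 stood at 7.58 to 7.67. Within stages the list and Fgf2 ran together on replicate 1. It was the highest fetal, adolescent and adult array for the list (7.83, 9.10 and 7.94) and for Fgf2 (7.67, 7.34 and 7.37). Aged replicate 1 was the lowest aged array for both (8.75 and 7.78). Nudt6, whose span overlaps that of Fgf2 in RefSeq, differed by 0.026 between aged and adult cells (adjusted p = 0.896). The antisense gene Fgf2os differed by -0.15 (0.505).

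Fgf1, an FGF that binds all the kinase receptors, lay close to background. Its arrays read 5.53, 5.22 and 5.32 in fetal cells, 5.89, 5.75 and 5.71 in adolescent cells, 5.84, 5.52 and 5.70 in adult cells, and 5.69, 5.90 and 6.01 in aged cells. It was above background on 7 of 12 arrays, and fetal replicates 2 and 3, adult replicates 2 and 3 and aged replicate 1 were not among them, so sizes of its differences are uncertain. Fgf1 was higher than in fetal cells in adolescent (0.43 ± 0.12, adjusted p = 0.0281), adult (0.33 ± 0.12, 0.0481) and aged cells (0.51 ± 0.12, 0.00535). The adolescent call was lost without fetal 2 or 3 or any adolescent array (0.0584 to 0.124), and with quantile normalization. The adult call was lost without any of 9 arrays (all but fetal 1, adult 2 and aged 1; 0.0533 to 0.151). The adult call was also lost with quantile normalization, with the replicate block and in a fit of those 2 stages alone. The aged call passed without any single array. The F-test of Fgf1 did not pass with quantile normalization, or without fetal 2 or 3 (adjusted p 0.083 to 0.102 without either array). The order was fetal, adult, adolescent and aged, and the later stages did not differ beyond their spread. The endothelial list had the same order of stages (6.94 to 7.83 in fetal, 7.87 to 7.94 in adult, 8.54 to 9.10 in adolescent and 8.75 to 9.34 in aged cells). Against fetal cells 9 of its 10 genes rose in adolescent, 3 in adult and 10 in aged cells, and 7 of 10 pericyte genes rose at each later stage. The part of endothelial and pericyte genes in the Fgf1 differences was not tested.

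Fgf7, a ligand made by mesenchymal cells and received by the epithelial form of FGFR2, was also dim. Fetal arrays read 5.91, 5.64 and 5.67, adolescent arrays 5.43, 6.01 and 6.07, adult arrays 5.46, 5.05 and 5.17, and aged arrays 5.29, 5.49 and 5.07. It was above background on 8 of 12 arrays, which were all fetal and adolescent arrays, adult replicate 1 and aged replicate 2. With 2 of 3 adult and 2 of 3 aged arrays not above background, the sizes of its falls are uncertain and no fold is given. Adult cells were lower than adolescent cells (-0.61 ± 0.18, adjusted p = 0.0304), though the arrays overlapped. The call ended with the replicate block (adjusted p = 0.0561), with arrays centred on their medians and in a fit of the 2 stages alone. It also ended without adolescent 2 or 3 or adult 2 or 3 (0.102 to 0.131). Adult cells were below fetal cells (-0.51 ± 0.18, 0.0362), lost without any fetal array or adult 2 or 3 (0.0545 to 0.135). Aged cells were below adolescent cells (-0.55 ± 0.18, 0.0456), lost without any of 8 arrays (0.0526 to 0.190). These were the arrays of fetal cells, adolescent 2 and 3, adult 3, and aged 1 and 3. The call between adult and fetal cells also ended with centring and with the block. That between aged and adolescent cells also ended with quantile normalization, centring, the block and the fit of 2 stages. The F-test of Fgf7 did not pass with the block, or without adolescent 2 or 3 or adult 2 or 3 (adjusted p 0.056 to 0.067 without 1 of these arrays).

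Fibroblast signal was read beside Fgf7. The mean of 9 fibroblast genes was 8.68 on adolescent replicate 1, where Fgf7 read 5.43, and 8.99 and 9.01 on adolescent replicates 2 and 3, where it read 6.01 and 6.07. It was 9.33 on fetal replicate 1 (Fgf7 5.91) and 8.68 and 8.70 on the other fetal arrays (5.64 and 5.67). In these stages the brighter arrays of the list were the brighter arrays of Fgf7. Among the adult arrays replicate 1 had the lowest list mean, 8.37, and the highest Fgf7 value, 5.46, while replicates 2 and 3 had list means of 8.49 and 8.52 and Fgf7 values of 5.05 and 5.17. On the aged arrays the list spanned 8.46 to 8.53. From adolescent to adult cells 1 of 9 rose and 3 fell. Their part in the Fgf7 differences was not tested.

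**Figure D3:**
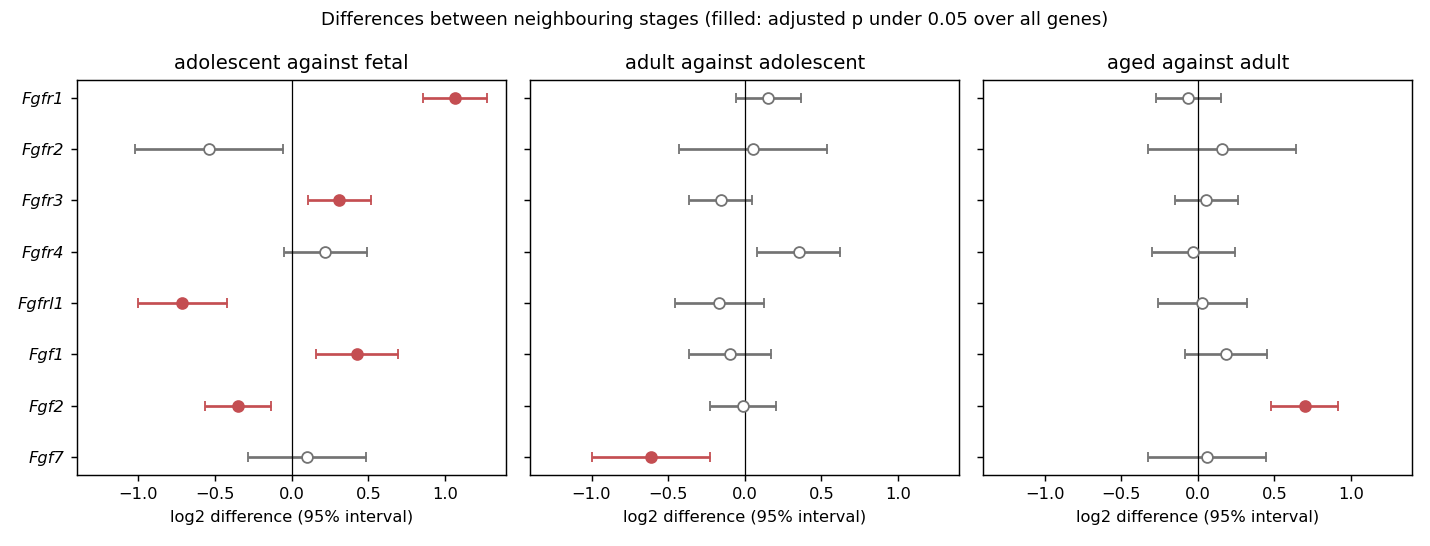
Log2 differences of the 8 members between neighbouring stages with 95% intervals from the pooled fit, filled where the adjusted p was under 0.05 over all genes. The intervals of Fgfr1 (0.85 to 1.28) and Fgfrl1 (-1.01 to -0.42) lie farthest from 0 in the step to adolescent cells, and that of Fgf2 (0.48 to 0.92) in the step to aged cells.

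Over the longer intervals, 3 members rose and 3 fell from fetal to adult cells (19.1% and 23.4% of all genes, 42.5% together), and arrays did not overlap for 5 members, against 47.9% of genes. From fetal to aged cells 4 rose and 1 fell (16.4% and 19.4%, 35.8% together), and the arrays of those stages did not overlap for 7 of 8 members (48.9% of genes). Between adolescent and aged cells Fgf2 rose and Fgf7 fell (8.08% and 11.5%, 19.6% together), with no overlap for 2 members, against 38.4% of genes. The split of calls over all genes depended on scaling. From adolescent to adult cells 909 genes rose and 3032 fell, against 1988 and 1980 with quantile normalization, and 2233 and 2076 with arrays centred on their medians, which moved the median difference of all genes by 0.11. From adult to aged cells the split was 654 and 43, or 621 and 147 with quantile normalization. From adolescent to aged cells it was 1611 and 2288, or 2303 and 2145. Adult replicate 1 decided the size of some counts, and without it 10757 genes passed from adolescent to adult and 7844 from adult to aged cells, while the members passing were 2 and 1.

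Of 15 other secreted FGF genes 3 passed the F-test (41.6% of all genes), and from fetal to adolescent cells 3 fell (8.68% of all genes). No ligand of that list rose in this step by limma (median of the list -0.058, all genes 0.024). Fgf10, a mesenchymal FGF of limb and organ budding, averaged 7.22 in fetal cells and 4.64, 4.90 and 4.63 later, and was above background on the fetal arrays alone. Its fall to adolescent cells passed (adjusted p = 3.23e-08), and since the later arrays were not above background its size is not given. Fgf16 fell to adolescent cells (-0.60 ± 0.18, 0.0304) and was higher in aged than adolescent cells (0.63 ± 0.18, 0.0237). Fgf22 was higher in adult than adolescent cells (0.37 ± 0.12, 0.0402), at means of 6.64 and 6.27. The 95th percentile of the odorant receptor probe sets was 6.14 on adult replicates 2 and 3, against 5.41 to 5.52 on adolescent arrays. The size of this difference is therefore uncertain. Fgf9 fell to adolescent cells (-0.37 ± 0.105, 0.0246), but its F-test did not pass (0.0571).

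The FGF homologous factors stay inside the cell, where they bind sodium channels, and do not signal through these receptors. Of 4 genes 3 passed the F-test, where 41.6% of all genes did. From fetal to adolescent cells 1 rose and 2 fell, against 10.1% and 8.68% of all genes. Fgf11 rose from 6.35 to 7.76 between fetal and adolescent cells (1.41 ± 0.096, adjusted p = 4.11e-07). Fgf12 (-0.98 ± 0.20, 0.00358) and Fgf13 (-0.69 ± 0.13, 0.00241) fell in the same step. Fgf14 was not above background on any array.

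Cell surface partners of FGFs changed in both directions. Of 19 co-receptor and FGF-binding genes 16 passed the F-test, where 41.6% of all genes did. From fetal to adolescent cells 6 rose and 7 fell, against 10.1% and 8.68% of all genes, with a list median of 0.099 beside 0.024 for all genes. From adolescent to adult cells 1 rose and 7 fell, against 4.56% and 15.2% (median -0.18, all genes 0.025). Gpc3, a heparan sulphate proteoglycan, fell from 11.5 in fetal to 8.69 in adolescent cells (-2.84 ± 0.14) and to 6.46 in adult cells (-2.24 ± 0.14). Sdc4, a syndecan that carries heparan sulphate beside FGF receptors, rose from 7.88 to 10.1 and then 10.7 (0.68 ± 0.12 for the second step, adjusted p = 0.00298). Sdc1 fell in both steps (-0.70 ± 0.14 and -0.73 ± 0.14), as did Gpc6 (-0.78 ± 0.11 and -0.57 ± 0.11).

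Enzymes that build or trim heparan sulphate set which FGFs a cell surface can hold. Of 20 named genes 19 were measured and 10 passed the F-test, where 41.6% of all genes did. From fetal to adolescent cells 3 rose and 7 fell, against 10.1% and 8.68% of all genes (median -0.080, all genes 0.024). Sulf1, which removes sulphate groups that FGF binding uses, rose by 2.26 ± 0.25 (6.95 to 9.21, adjusted p = 2.91e-05) and was higher again in aged than adolescent cells (0.95 ± 0.25, 0.0179). Hpse, the heparanase, rose by 1.43 ± 0.14 (1.23e-05) and fell from adolescent to adult cells (-0.96 ± 0.14, 8.79e-04). Glce, an epimerase of chain synthesis, rose by 0.79 ± 0.12 (2.64e-04). Hs3st3a1, a sulphotransferase, fell from 5.92 to 5.01 (adjusted p = 8.31e-05) but was above background on the 3 fetal arrays alone, so the size of the fall is not measured.

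Inside the cell, adaptors and kinases carry the signal to ERK. Of 22 named adaptor and transducer genes 16 were measured and 7 passed the F-test, a share near the 41.6% of all genes. Map2k1, a kinase that phosphorylates ERK, fell from adolescent to adult cells (-0.73 ± 0.11, adjusted p = 9.01e-04), as did the phosphatase gene Ptpn11 (-0.44 ± 0.10, 0.0106). Gab1, a docking protein, rose from fetal to adolescent cells (0.30 ± 0.094, 0.0402), and Nras fell (-0.44 ± 0.14, 0.0406). Of 21 ERK targets and feedback inhibitors 13 passed the F-test (41.6% of all genes). From fetal to adolescent cells 5 rose and 3 fell (10.1% and 8.68% of all genes), and from adolescent to adult cells 4 rose and 4 fell (4.56% and 15.2%). From fetal to adult cells 10 rose and 2 fell (19.1% and 23.4% of all genes; median 0.28, all genes 0.088). From fetal to aged cells 10 rose and 3 fell (16.4% and 19.4%; median 0.20, all genes 0.018). Etv1, an ETS factor induced by FGF, fell from 9.34 to 7.28 between fetal and adolescent cells (-2.06 ± 0.12, 8.60e-08). The inhibitor gene Il17rd fell as well (-1.35 ± 0.11, 1.62e-06). The feedback inhibitor gene Spry1 rose in the steps to adolescent and adult cells, the latter by 0.44 ± 0.092 (0.00616). Myc rose to adolescent cells (0.66 ± 0.13, 0.00342) and was higher in aged than adolescent cells (0.80 ± 0.13, 0.00106).

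**Figure D4:**
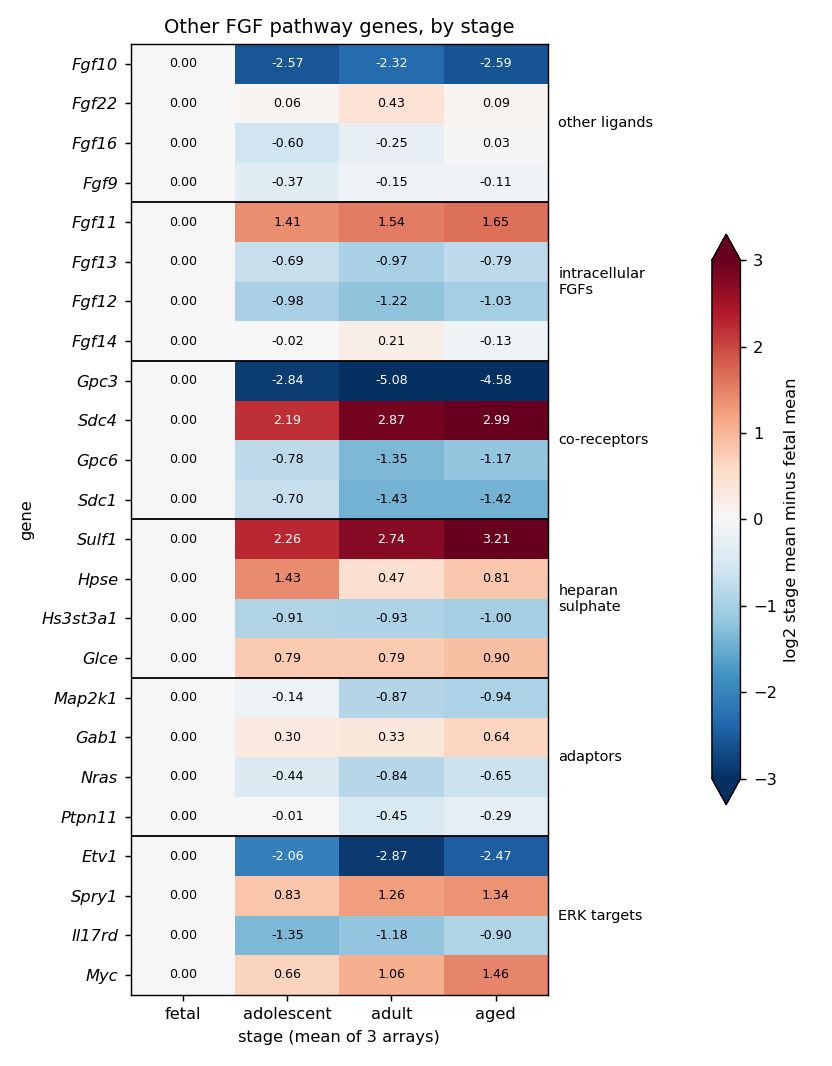
Log2 stage mean (3 arrays) minus the fetal mean for up to 4 genes of each pathway list with the smallest F-test p, with the value printed in each cell and colours capped at 3 in either direction. Gpc3, Fgf10 (not above background after the fetal stage) and Etv1 are below and Sdc4, Sulf1 and Fgf11 above their fetal level at all later stages.

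Patterns over the 12 arrays were compared with 7109 other genes that passed the F-test and reached a stage mean of 6. Pearson's r describes likeness here, with stages and arrays shared by all genes. Closest to Fgfr1 were Chrdl2, a BMP antagonist of satellite cells (r = 0.996), Unc93b1, a chaperone of Toll-like receptors (0.996), and Hr, a nuclear corepressor (0.995). All 3 were lowest in fetal cells, as with Chrdl2, itself on the satellite cell list, at 7.51 against 10.5 to 10.7 later. Closest to Fgfr4 were Lsp1 (0.974), Fuz (0.967) and Fam53b (0.963). Closest to Fgfrl1 were Stbd1 (0.982), the fetal myosin light chain gene Myl4 (0.978) and Uchl1 (0.975), with Myl4 averaging 10.4 in fetal and 7.26 in aged cells. Closest to Fgf2 were Fam184a (0.982), Chst15, a sulphotransferase of chondroitin sulphate (0.977), and Rictor, a subunit of an mTOR complex (0.977). Each of these was highest in aged cells, with Chst15 at 8.10 there and 6.96 in adult cells.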

How the data were processed

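Gene expression was read on 12 single-colour Affymetrix arrays, 3 for each of 4 stages. The authors deposited log2 values that, per the submitters' processing notes, come from Expression Console 1.2.1.20 (Affymetrix) with RMA. The genome build is not given in the sources used here. Muscle was digested with collagenase and dispase and RNA amplified before labelling, per the labels' protocols. The number of arrays limits the precision.

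Of 35556 probe sets 21789 carried 1 symbol, 1621 several and 12146 none. The brightest probe set per gene gave 19938 genes. A stage mean model was fitted to all 12 arrays with limma 3.58.1 in R 4.3.3 (8 residual degrees of freedom), and p was adjusted by Benjamini-Hochberg. The fit was tested on simulated data. Deviations from stage means correlated at 0.239 to 0.362 between equal replicate numbers of adolescent and adult arrays. Adolescent replicate 2 with adult replicate 3 (0.293) and adolescent replicate 3 with adult replicate 2 (0.240) lay in the same range. Numbers 2 and 3 were thus not told apart, and the replicate block is an alternative that rests on a hint from the data only. Over all pairs of stages the correlation of equal numbers ran from -0.435 to 0.362.

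The members, lists, rule for naming genes and alternatives were chosen with earlier results of these data known. Every member is named, up to 4 genes of a list with the smallest F-test p, and the 3 genes most alike to each member that passed the F-test with a stage mean of at least 6, leaving out predicted genes, RIKEN clones, small RNAs, odorant receptors and antigen receptor segments. Alternatives were quantile normalization, centring, averaging a gene's probe sets, a filter at 6, a fit of the 2 stages compared, a replicate block, averaging of replicates 2 and 3, and leaving out each array. Members' p-values were read from the fit over all genes.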

Additional observations from a re-analysis of the deposited data

How the results depend on the processing

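Of 948 differences of members recomputed under 20 alternative settings, 847 kept their call, 88 lost it, 12 gained one and 1 reversed. The reversal was that of Fgf2 in adult against adolescent cells with quantile normalization (0.24, from -0.013). Differences that passed in neither setting count as kept, also where their sign changed. A loss could only fall on a difference that passed in the full fit, so the count kept does not measure how stable those calls were. Fgf7 in aged against adolescent cells lost its call in 14 of 19 settings. The call of Fgf1 in adult against fetal cells was lost in 13 of 19, and that of Fgfr3 in adolescent against fetal cells in 12 of 20. The differences of Fgfr1 from fetal cells and of Fgfrl1 in adult and aged against fetal cells kept their calls throughout. Odorant receptor signal limits Fgf1, Fgf7 and Fgfr2, and leaving out its 3 high arrays was chosen after the data were seen.

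With replicates 2 and 3 averaged the members passing were 1 from fetal to adolescent (5 in the full fit), 0 from adolescent to adult (1), 0 from adult to aged (1), 2 in adult against fetal (6), 0 in aged against adolescent (2), 2 in aged against fetal (5) and 2 in the F-test (6), and the genes passing, in that order, 1472 (3739), 323 (3941), 2 (697), 3532 (8465), 1122 (3899), 4140 (7138) and 3430 (8293). In a fit of the stages compared, adult against adolescent had 0 members and 2145 genes passing, aged against adult 0 members and 176 genes, and aged against adolescent 1 member. With quantile normalization the members passing were 3 between fetal and adolescent, 2 between adolescent and adult, and 1 in aged against adolescent, where centring and the filter at 6 (which removes Fgf1 and Fgf7) also left 1. With the replicate block 3 members passed in adolescent against fetal cells, Fgfr4 passed in aged against adolescent cells (adjusted p = 0.0440), and 3458 genes passed in adult against adolescent cells, where the block made Fgfr4 pass (0.0334), ended the call of Fgf7 (0.0561) and changed no other member's call. The block was fitted to all arrays at once (6 residual degrees of freedom), so its results take equal numbers as paired in every stage. The data gave no hint of that between adult and aged arrays, where equal numbers correlated at -0.435 to -0.237. Without the 3 arrays of high odorant receptor signal, which leaves adult replicate 1 alone in its group, assumed to vary like the others, members passing were 0 in adult against adolescent, 3 in adult against fetal and 1 in aged against adolescent, with 5904 genes passing in adolescent against fetal, 1586 in the first, 6351 in the last and 1608 in aged against adult.

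Without any single array the members passing ran from 2 to 5 between fetal and adolescent, 0 to 2 between adolescent and adult, 1 to 3 in aged against adolescent, 4 to 6 in adult against fetal, 4 to 6 in aged against fetal and 5 to 7 in the F-test, and stayed at 1 in aged against adult. Genes passing ran from 2690 to 5049, 1876 to 10757, 2693 to 5466, 5923 to 12968, 5893 to 8537 and 6665 to 14192 in the same order, and from 214 to 7844 in aged against adult. The highest of each came without adult replicate 1.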
